A study of Mus musculus with 6 samples.

Results

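The 10 genes described here encode enzymes of de novo ceramide synthesis in mouse small-intestinal organoids. They are the serine palmitoyltransferase subunit genes Sptssa, Sptssb, Sptlc1, Sptlc2 and Sptlc3, the ketoreductase gene Kdsr, the ceramide synthase genes Cers2 and Cers6, and the desaturase genes Degs1 and Degs2. They were taken by symbol from a list, and all 10 were found among the 53953 rows that each library lists. The list was drawn up with the comparison of arachidonic acid and vehicle already known. The members' values in that comparison are therefore given as a description and without a test. Calls on them are counted only beside those on all genes, and nothing is read from these counts.

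RNA was sequenced from organoids cultured with arachidonic acid, a polyunsaturated fatty acid of the omega-6 series, over the 3 days that preceded passaging (3 libraries), and from organoids given the vehicle (3 libraries). Arachidonic acid was dissolved in 0.1% ethanol, which the vehicle organoids received alone, and total RNA was prepared 3 days after that passage. All 6 cultures came from crypts of the proximal small intestine of C57BL/6 wt mice, were grown in Matrigel and were at passage 3 to 5. Organoids of this kind are epithelial cultures without blood vessels, immune cells or connective tissue. The sources used here give no concentration of arachidonic acid and do not say whether libraries of 1 group came from separate mice or cultures, so every p-value and SD reflects how far these libraries differ among themselves, and part of that may be technical.

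Ceramide, the core of all sphingolipids, is built in the endoplasmic reticulum. Serine palmitoyltransferase (SPT) joins serine to a fatty acyl-CoA, a ketoreductase reduces the product, ceramide synthases attach an N-linked fatty acid of a chain length that depends on the synthase, and a desaturase or hydroxylase finishes the backbone. In the gut epithelium, ceramides and the glycosphingolipids made from them are major lipids of the brush border membrane, and 4-hydroxylated phytoceramides are abundant there.

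Levels are FPKM, which are fragments scaled by gene length and by library depth. The values implied depths of 50.8, 35.6 and 48.6 M fragments in the arachidonic acid libraries and 37.4, 36.6 and 38.5 M in the vehicle libraries. Arachidonic acid replicate 1 stood apart from its group. On the first principal component of all tested genes, which held 85.2% of the variance, it lay at 10.2, against 58.1 and 54.6 for arachidonic acid replicates 2 and 3 and -41.6 to -40.4 for the vehicle libraries. All 5 epithelial markers looked for (Epcam, Cdh1, Vil1, Krt8 and Krt20) were present, with summed levels of 2660 to 2916 FPKM in arachidonic acid libraries and 1972 to 2080 FPKM in vehicle libraries. Without overlap, Krt8 and Vil1 were higher and Epcam lower with arachidonic acid, and Krt8 alone held 1430 to 1804 FPKM with arachidonic acid and 731 to 778 FPKM with vehicle. None of 5 mesenchymal, 5 immune or 5 endothelial markers reached 1 FPKM in any library, and the endothelial markers Cdh5 and Emcn were at 0 in all of them. Some markers of the epithelial cell types differed between the groups. Without overlap, 5 of 5 enteroendocrine, 4 of 5 Paneth, 2 of 5 goblet and 3 of 5 stem cell markers fell with arachidonic acid. Of the stem cell markers, 1 was higher. Over all tested genes, 27.5% were lower and 27.6% higher without overlap, and marker counts this small are not read against those shares. Summed over 5 markers each, arachidonic acid libraries held 233 to 371 FPKM of goblet, 298 to 547 of Paneth, 103 to 137 of enteroendocrine and 350.4 to 452 of stem cell markers, against 765 to 938, 1342 to 2118, 484 to 566 and 675 to 725 FPKM in vehicle libraries. The 5 enterocyte markers summed to 1764 to 4381 FPKM with arachidonic acid and 642 to 857 FPKM with vehicle. Fabp1 alone held 1617 to 4094 FPKM of that sum with arachidonic acid and 313 to 412 FPKM with vehicle. Without overlap, 2 of the 5 were higher (Fabp1 and Alpi) and 2 lower (Sis and Lct). Sis had 8.51 to 120 FPKM with arachidonic acid, against 218 to 301 FPKM with vehicle. The 5 tuft cell markers summed to 1.99 to 7.94 FPKM with arachidonic acid and 1.96 to 2.94 FPKM with vehicle. Fewer cells of a type and less RNA per cell cannot be told apart in such bulk libraries, and the part of these shifts in the results below was not tested.

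Of the members, Sptssb, a small subunit gene of SPT, showed the widest difference between the groups. SPTSSA and SPTSSB are short membrane proteins that bind the large subunits, raise the activity of the enzyme and set which acyl-CoA it prefers, SPTSSB shifting the preference to acyl-CoAs longer than palmitoyl-CoA. Sptssb had 17.3, 24.0 and 26.3 FPKM in arachidonic acid replicates 1, 2 and 3, against 0.646, 0.405 and 0.303 FPKM in vehicle replicates 1, 2 and 3. These levels rest on 1127, 1096 and 1636 fragments with arachidonic acid and 31, 19 and 15 fragments with vehicle. Every arachidonic acid library was far above every vehicle library, and replicate 1 was the lowest of its group. The means were 22.5 ± 4.66 FPKM with arachidonic acid and 0.451 ± 0.176 FPKM with vehicle (SD, n = 3 each here and below), a ratio of 49.9. On the log2(FPKM + 1) scale used for all differences here, which understates the change of a gene this low, arachidonic acid minus vehicle was 4.0 (SE 0.18), and 4.18 without arachidonic acid replicate 1. It was 5.38 with a pseudocount of 0.1 in place of 1, and 5.65 from fragments with limma-voom. Sptssb passed the filter on low genes, a mean over all libraries of 1 FPKM or more, through its arachidonic acid values alone.

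Sptssa went the other way. It had 150.8, 99.3 and 108 FPKM in arachidonic acid replicates 1, 2 and 3, against 203, 193 and 203 FPKM in vehicle replicates 1, 2 and 3. The groups did not overlap, and arachidonic acid replicate 1 lay nearest to the vehicle libraries. The means were 119 ± 27.5 FPKM with arachidonic acid and 199.7 ± 6.09 FPKM with vehicle, a log2 difference of -0.76 (SE 0.15) and of -0.94 without arachidonic acid replicate 1. Sptssb thus made up 10.3%, 19.5% and 19.5% of the summed FPKM of the pair in arachidonic acid libraries, and 0.317%, 0.210% and 0.149% in vehicle libraries. Sptssa remained the more abundant transcript in every library, 4.12 to 8.72 times the level of Sptssb with arachidonic acid and 314 to 671 times with vehicle. The sum of the pair was lower with arachidonic acid, at 168, 123 and 134 FPKM, against 204, 193 and 204 FPKM with vehicle.

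The 250 bases upstream of the annotated start of each small subunit gene are shown because the transcripts of this pair moved in opposite directions. They are RefSeq sequences of build GRCm38.p6, matched by symbol, on the minus strand at chr12:54656573-54656822 for Sptssa and chr3:69859895-69860144 for Sptssb, and capitals mark CCAAT boxes (CCAAT) and GC boxes (GGGCGG), searched on both strands.
Sptssa: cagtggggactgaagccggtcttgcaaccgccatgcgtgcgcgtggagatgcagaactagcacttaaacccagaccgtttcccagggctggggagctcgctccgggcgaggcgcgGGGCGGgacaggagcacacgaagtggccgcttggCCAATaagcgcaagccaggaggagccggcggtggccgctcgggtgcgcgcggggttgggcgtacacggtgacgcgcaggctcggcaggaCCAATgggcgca
Sptssb: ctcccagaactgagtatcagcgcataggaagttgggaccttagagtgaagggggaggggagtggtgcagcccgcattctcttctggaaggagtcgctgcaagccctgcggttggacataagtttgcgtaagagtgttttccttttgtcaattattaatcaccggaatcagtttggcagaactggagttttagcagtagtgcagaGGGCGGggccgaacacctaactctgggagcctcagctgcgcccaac
The windows differ in composition. The Sptssa window holds 28 CpG dinucleotides and 68.8% G and C, the Sptssb window 9 CpG dinucleotides and 53.2%, beside a median of 6 CpG dinucleotides over 32851 promoter windows of this length. The Sptssa window has 2 CCAAT boxes and 1 GC box and the Sptssb window 1 GC box. A CCAAT box occurs in 33.8% and a GC box in 32.7% of all windows. Neither window, nor that of any other member, matched a TATA box (TATAAA, in 12.4% of all windows), an AP-1 site (TGANTCA, 6.75%), the core of an antioxidant response element (TGACNNNGC, 10.2%), a TEAD site (GGAATG, 12.6%) or a PPAR direct repeat (AGGTCA, any base, AGGTCA, 0.0335%), which says only that these letters are not in these windows. None of these motifs overlapped another in the 2 windows shown.

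**Figure D1:**
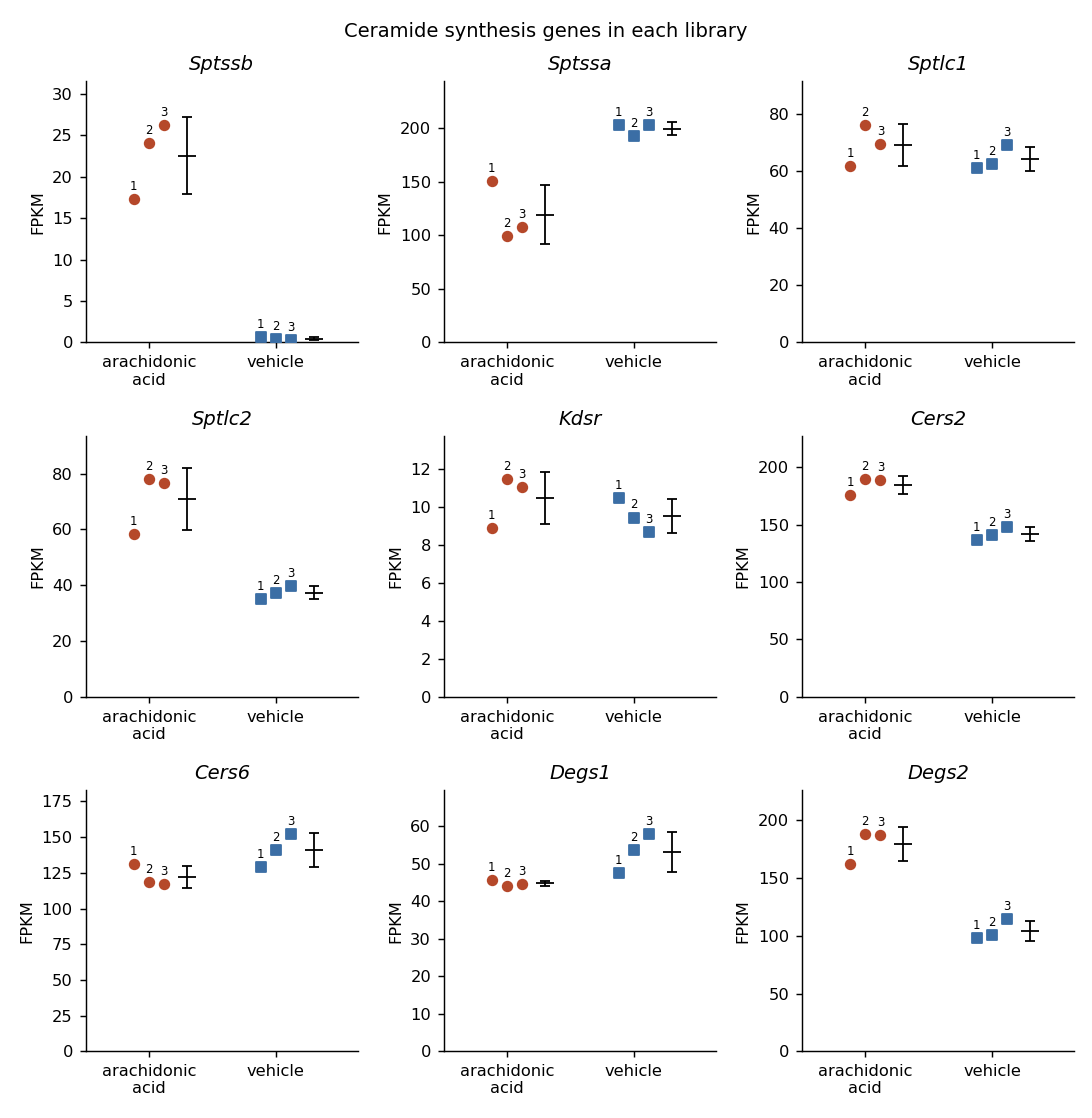
FPKM of 9 ceramide synthesis genes in each library (circles, arachidonic acid; squares, vehicle; small digits, replicate number), with the mean ± SD of 3 libraries beside each group; Sptlc3 was at 0 in all libraries and is not drawn. Sptssb lay at 17.3 to 26.3 FPKM with arachidonic acid and below 1 FPKM with vehicle, and the groups overlapped for Sptlc1, Kdsr and Cers6.

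Of the large subunits, only Sptlc2 separated the groups. SPTLC1 and SPTLC2 form the core of the enzyme, and SPTLC2 carries the catalytic lysine that binds pyridoxal phosphate. Sptlc2 had 58.2, 78.1 and 76.8 FPKM in arachidonic acid replicates 1, 2 and 3, against 35.2, 37.3 and 39.8 FPKM in vehicle replicates 1, 2 and 3. The groups did not overlap, and the means of 71.0 ± 11.1 FPKM with arachidonic acid and 37.4 ± 2.31 FPKM with vehicle gave a log2 difference of 0.90 (SE 0.12), or 1.03 without arachidonic acid replicate 1. Sptlc1 had 61.7, 76.2 and 69.6 FPKM in arachidonic acid replicates 1, 2 and 3, against 61.1, 62.3 and 68.9 FPKM in vehicle replicates 1, 2 and 3. These groups overlapped, and the log2 difference was 0.10 (SE 0.09) with all libraries and 0.18 without arachidonic acid replicate 1. The level of Sptlc2 relative to Sptlc1 was therefore 0.944, 1.02 and 1.10 in arachidonic acid libraries and 0.576, 0.598 and 0.577 in vehicle libraries. Sptlc3, the alternative to Sptlc2 that widens the range of acyl-CoAs the enzyme accepts, was listed at 0 in all 6 libraries. At these depths a count of 0 allows up to 3 fragments per library, or 0.0237 to 0.0338 FPKM for this gene, a limit that covers counting error only.

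Kdsr encodes 3-ketodihydrosphingosine reductase, which carries out the second step of the pathway. It had 8.89, 11.5 and 11.1 FPKM in arachidonic acid replicates 1, 2 and 3, against 10.5, 9.45 and 8.71 FPKM in vehicle replicates 1, 2 and 3. The ranges overlapped across most of their span, with a log2 difference of 0.12 (SE 0.12), and 0.22 without arachidonic acid replicate 1.

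The ceramide synthase genes shifted against each other. CERS2 attaches very-long-chain fatty acids, and CERS6 palmitic acid and other shorter chains. Cers2 had 175, 189.5 and 189 FPKM in arachidonic acid replicates 1, 2 and 3, against 137, 141 and 148 FPKM in vehicle replicates 1, 2 and 3. All arachidonic acid libraries were above all vehicle libraries, with means of 184 ± 7.99 FPKM with arachidonic acid and 142 ± 5.82 FPKM with vehicle and a log2 difference of 0.38 (SE 0.06), or 0.41 without arachidonic acid replicate 1. Cers6 had 131, 119 and 117 FPKM in arachidonic acid replicates 1, 2 and 3, against 129, 141 and 153 FPKM in vehicle replicates 1, 2 and 3. Replicate 1 of each group made the ranges overlap, and the log2 difference was -0.20 (SE 0.08), or -0.25 without arachidonic acid replicate 1. The level of Cers2 relative to Cers6 was 1.34, 1.60 and 1.61 with arachidonic acid and 1.06, 0.995 and 0.971 with vehicle. By these FPKM, which rest on the mean transcript length, the pair stood near equality in vehicle organoids. With the summed length of all exons instead, the vehicle means were 37.6 FPKM for Cers2 and 28.5 FPKM for Cers6.

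The desaturase genes also diverged. DEGS1 introduces the double bond that turns dihydroceramide into ceramide, while DEGS2 can also hydroxylate that position, giving phytoceramide, the form common in intestine, kidney and skin. Degs2 had 162, 188 and 187 FPKM in arachidonic acid replicates 1, 2 and 3, against 97.9, 100.5 and 114 FPKM in vehicle replicates 1, 2 and 3. The groups were well apart, with means of 179 ± 14.7 FPKM with arachidonic acid and 104 ± 8.78 FPKM with vehicle and a log2 difference of 0.78 (SE 0.09), or 0.85 without arachidonic acid replicate 1. Degs1 had 45.5, 44.2 and 44.6 FPKM in arachidonic acid replicates 1, 2 and 3, against 47.4, 53.6 and 58.0 FPKM in vehicle replicates 1, 2 and 3. Its groups did not overlap, although the nearest libraries, replicate 1 of each group, lay close together, and the log2 difference was -0.24 (SE 0.08), or -0.25 without arachidonic acid replicate 1. Degs2 was thus 78.1%, 81.0% and 80.8% of the summed desaturase FPKM with arachidonic acid and 67.4%, 65.2% and 66.3% with vehicle. Exons of Degs2 share 278 of 2583 bases with the opposite-strand gene Evl, at 5.03 FPKM with arachidonic acid and 7.53 FPKM with vehicle, and exons of Cers2 share 75 and 144 of 3676 bases with Setdb1 and 6330562C20Rik, so that fragments from the shared bases are uncertain where counting did not use strand. Exons of Sptssa share 80 of 1518 bases with Mir1892, listed at a mean of 0 FPKM in both groups. Mir1892 lies on the same strand, so counting by strand would not separate the shared bases.

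**Figure D2:**
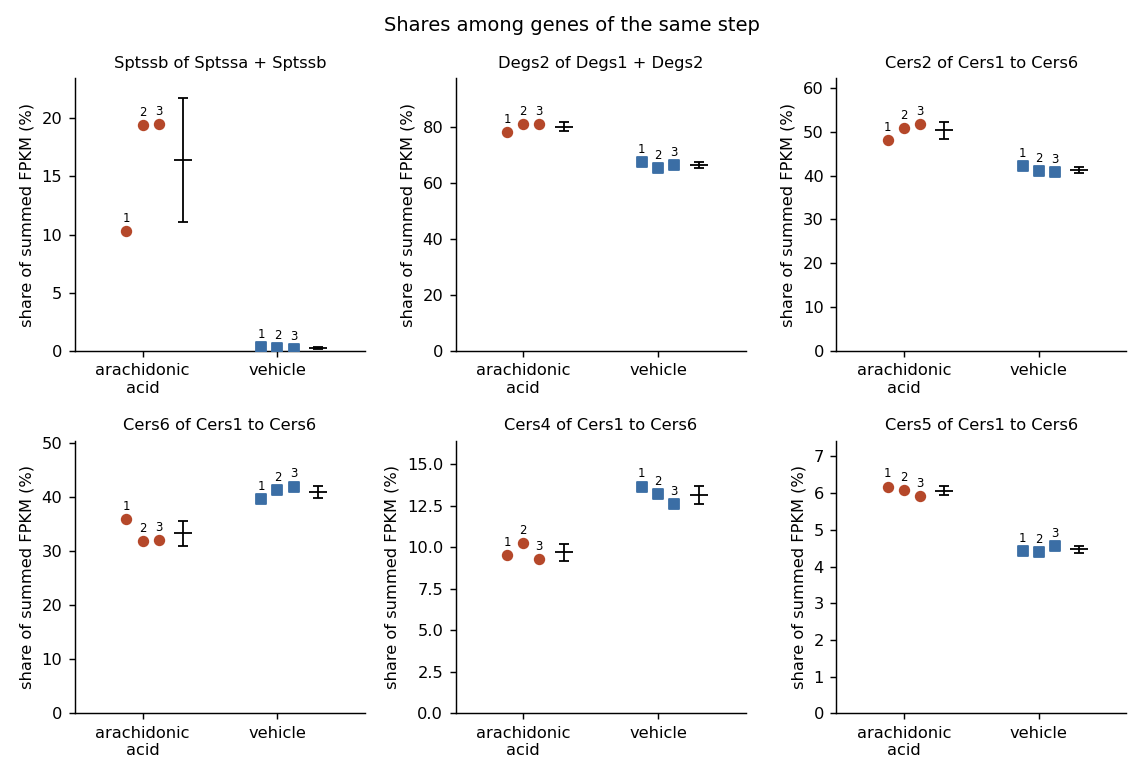
Shares of summed FPKM among genes of the same step in each library (circles, arachidonic acid; squares, vehicle; small digits, replicate number; bars, mean ± SD of 3 libraries). Sptssb held 10.3% to 19.5% of the small subunit FPKM with arachidonic acid and under 1% with vehicle. The groups did not overlap in any of the 6 panels, and the levels of 55.0% of all tested genes did not overlap either. Nothing is read from this, since the genes were chosen with earlier results of these data known. The Cers panels are shares of the same sum and so are not separate observations.

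Among the 9 members with enough signal for the fit over all genes (limma on log2(FPKM + 1), Benjamini-Hochberg adjusted p under 0.05), 4 were called higher (Sptssb, Sptlc2, Cers2 and Degs2) and 1 lower (Sptssa), where 20.8% and 19.4% of all 12913 tested genes were called higher and lower. The 2 groups of libraries did not overlap for 6 of the 9, where that held for 55.0% of all tested genes. Since the list was drawn up with this comparison in view, nothing is read from either count. Cers6 and Degs1 were also called lower without arachidonic acid replicate 1 and with quantile normalization, and Degs1 without vehicle replicate 1. Of all tested genes, 4192, 2969 and 1245 were called lower at these settings in turn, against 2502 in the fit above. Nothing is read from these calls on members either.

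**Figure D3:**
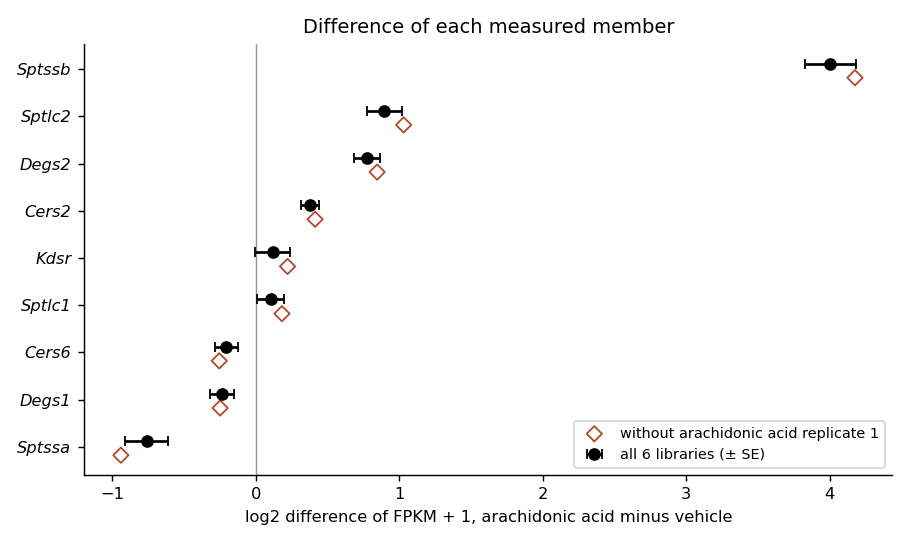
Log2 difference of FPKM + 1, arachidonic acid minus vehicle, for the 9 measured members, from all 6 libraries (filled circles, bars ± SE) and without arachidonic acid replicate 1 (open diamonds). Values run from -0.76 for Sptssa to 4.0 for Sptssb, and leaving out arachidonic acid replicate 1 moved all 9 differences further from 0.

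The order of the members' levels changed with the treatment. In vehicle libraries the order by mean FPKM was Sptssa (199.7), Cers2 (142), Cers6 (141), Degs2 (104), Sptlc1 (64.1), Degs1 (53.0), Sptlc2 (37.4), Kdsr (9.55), Sptssb (0.451) and Sptlc3 (0). The ranges of neighbours overlapped only for Cers2 and Cers6 there. In arachidonic acid libraries Cers2 (184) and Degs2 (179) led, ahead of Cers6 (122), Sptssa (119), Sptlc2 (71.0), Sptlc1 (69.2), Degs1 (44.8), Sptssb (22.5), Kdsr (10.5) and Sptlc3 (0). Neighbours whose ranges overlapped there were Cers2 and Degs2, Cers6 and Sptssa, and Sptlc2 and Sptlc1. The authors' FPKM rest on the mean length of a gene's transcripts. With the summed length of all its exons instead, the order with arachidonic acid was led by Degs2, Sptssa and Cers2, at 86.8, 72.5 and 49.0 FPKM, ahead of Sptlc1, Cers6 and Degs1, at 25.2, 24.7 and 24.4 FPKM. The vehicle order after Sptssa was then Degs2, Cers2, Degs1, Cers6 and Sptlc1, at 50.5, 37.6, 28.9, 28.5 and 23.4 FPKM, so levels set between members depend on the length used, while the comparison of a gene with itself between groups does not.

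The 5 genes whose profile over the 6 libraries lay nearest to Sptssb, by the root mean square difference of log2(FPKM + 1) after subtracting each gene's vehicle mean, were Vnn1 (0.16), Anxa10 (0.23), Plat (0.26), Gprc5a (0.28) and Tnni2 (0.31). Vnn1, a pantetheinase, had 18, 31.2 and 26.7 FPKM in arachidonic acid replicates 1, 2 and 3, against 0.512, 0.698 and 0.464 FPKM in vehicle replicates 1, 2 and 3. Anxa10, an annexin, averaged 60.5 FPKM with arachidonic acid and 2.26 FPKM with vehicle. Plat, tissue plasminogen activator, averaged 22.8 FPKM with arachidonic acid and 0.467 FPKM with vehicle. Gprc5a, an orphan G protein-coupled receptor, averaged 34.4 FPKM with arachidonic acid and 0.773 FPKM with vehicle. Tnni2, a troponin subunit of fast muscle, averaged 17.8 FPKM with arachidonic acid and 0.122 FPKM with vehicle. The likeness describes these libraries and rests on the difference between the groups that they all share.

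**Figure D4:**
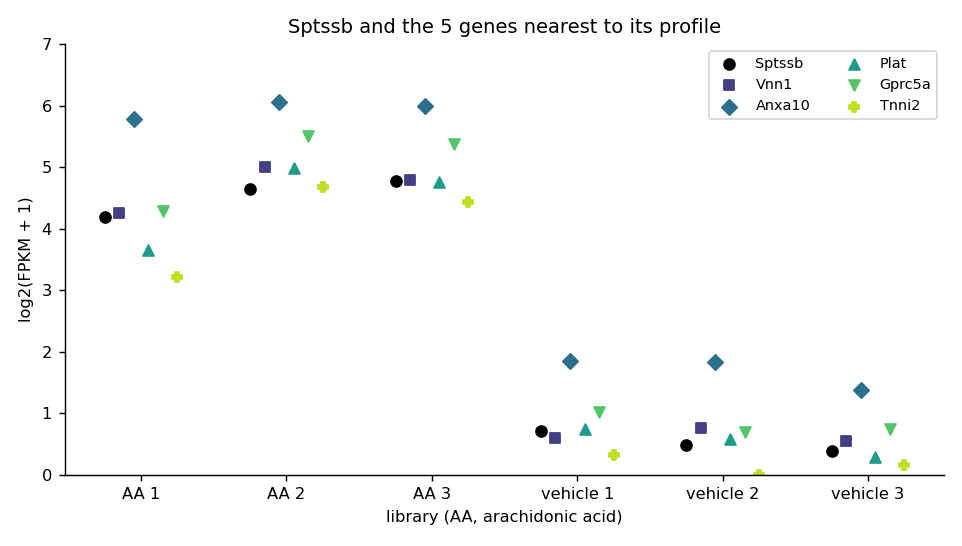
Level as log2(FPKM + 1) of Sptssb (black circles) and of the 5 genes with the nearest profile in each of the 6 libraries. All 6 genes lay above 3 log2 units in the arachidonic acid libraries and below 2 in the vehicle libraries, with replicate 1 the lowest of the arachidonic acid libraries for each.

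Of 57 other genes of sphingolipid metabolism, grouped by role, 48 were tested in the same fit. Of these, 16 rose, 10 fell and 22 did not pass, so that 54.2% were called, where 40.2% of all tested genes were called. Their median log2 difference was 0.06, beside -0.03 for all tested genes. Of the 48, 2 passed the filter only through their arachidonic acid values (Cers3 and Sphk1) and 1 only through its vehicle values (Acer1). Leaving out arachidonic acid replicate 1 gave 22 higher and 17 lower, and leaving out any other single library 11 to 12 higher and 4 to 6 lower.

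The ORMDL proteins hold SPT in check when ceramide is plentiful. Ormdl2, the most abundant of the 3 genes, fell to 41.7 ± 0.291 FPKM with arachidonic acid, against 47.7 ± 0.538 FPKM with vehicle (log2 difference -0.19, SE 0.05, limma adjusted p = 0.031). The call was lost with TPM rescaling (adjusted p = 0.104), with the replicate block (adjusted p = 0.089) and without any 1 library other than arachidonic acid replicate 1 (adjusted p = 0.081 to 0.113). Ormdl1 was at 9.87 ± 0.758 and 11.4 ± 0.514 FPKM with arachidonic acid and vehicle (adjusted p = 0.12) and Ormdl3 at 16.2 ± 2.66 FPKM with arachidonic acid and 14.6 ± 0.851 FPKM with vehicle (adjusted p = 0.43). Both passed without arachidonic acid replicate 1, with log2 differences of -0.24 for Ormdl1 (adjusted p = 0.028) and 0.25 for Ormdl3 (adjusted p = 0.044).

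The other ceramide synthase genes split. Cers5, whose enzyme like CERS6 prefers palmitic acid, rose to 22.3 ± 0.588 FPKM with arachidonic acid, against 15.3 ± 1.15 FPKM with vehicle (log2 difference 0.51, SE 0.08, limma adjusted p = 0.0040). Cers4, which favours long-chain fatty acids between those of CERS6 and CERS2, fell to 35.6 ± 2.29 FPKM, against 45.1 ± 0.768 FPKM with vehicle (log2 difference -0.33, SE 0.07, adjusted p = 0.010). Both calls held under all 14 alternatives. Cers3, the synthase of ultra-long-chain ceramides best known from epidermis, had 0.348, 3.17 and 2.87 FPKM in arachidonic acid replicates 1, 2 and 3, against 0.0121, 0.0124 and 0.0588 FPKM in vehicle replicates 1, 2 and 3. These stand for 39, 249 and 307 fragments with arachidonic acid and 1, 1 and 5 with vehicle. Its log2 difference of 1.44 (SE 0.43, adjusted p = 0.035) lost its call from fragments with limma-voom (log2 difference 5.62, adjusted p = 0.062), with no filter (adjusted p = 0.082), with quantile normalization (adjusted p = 0.093) and without any 1 vehicle library (adjusted p = 0.091 to 0.102). Without arachidonic acid replicate 2 or 3, and at a minimum of 5 FPKM, Cers3 was below the filter and could not be tested. Cers1 did not reach 0.1 FPKM in any library. Over Cers1 to Cers6, Cers2 held 48.2% to 51.8% of the summed FPKM with arachidonic acid and 40.8% to 42.1% with vehicle.

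Genes of the step from ceramide to sphingomyelin went both ways. Sgms2, the sphingomyelin synthase of the plasma membrane, fell to 30.2 ± 8.87 FPKM with arachidonic acid, against 52.8 ± 2.89 FPKM with vehicle (log2 difference -0.82, SE 0.18, limma adjusted p = 0.014), a call lost without vehicle replicate 3 (adjusted p = 0.0536). Samd8, a related synthase that makes ceramide phosphoethanolamine, rose to 13 ± 2.16 FPKM, against 7.24 ± 0.785 FPKM with vehicle (log2 difference 0.75, SE 0.14, adjusted p = 0.0073). Sgms1, the synthase of the Golgi, and Cert1, the ceramide carrier, did not pass. Of the sphingomyelinase genes, Smpd3 rose to 79.7 ± 16.4 FPKM, against 42.4 ± 1.06 FPKM with vehicle (log2 difference 0.87, SE 0.15, adjusted p = 0.0059), and Smpd2 fell to 29.2 ± 1.54 FPKM, against 36.9 ± 0.904 FPKM with vehicle (log2 difference -0.33, SE 0.07, adjusted p = 0.0097). Both encode neutral sphingomyelinases, which release ceramide from sphingomyelin.

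Ceramide is also glycosylated, phosphorylated or hydroxylated. Ugcg, the glucosylceramide synthase, rose to 57.5 ± 3.64 FPKM with arachidonic acid, against 43.6 ± 2.77 FPKM with vehicle (log2 difference 0.39, SE 0.08, limma adjusted p = 0.0090). B4galt6, a lactosylceramide synthase, rose to 35.7 ± 2.26 FPKM, against 24.1 ± 2.46 FPKM with vehicle (log2 difference 0.55, SE 0.09, adjusted p = 0.0056). Cerk, ceramide kinase, fell to 26.3 ± 0.641 FPKM, against 30.9 ± 1.58 FPKM with vehicle (log2 difference -0.22, SE 0.07, adjusted p = 0.038), and lost its call with TPM rescaling (adjusted p = 0.093), with the replicate block (adjusted p = 0.080) and without any 1 library other than arachidonic acid replicate 1 (adjusted p = 0.061 to 0.119). Fa2h, the fatty acid 2-hydroxylase that supplies hydroxylated acyl chains, was below the filter. It had 0.600, 2.23 and 2.57 FPKM in arachidonic acid replicates 1, 2 and 3, against 0.0769, 0.267 and 0.0745 FPKM in vehicle replicates 1, 2 and 3, and was not tested.

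Of 5 tested ceramidase genes, whose products break ceramide down, 2 rose and 1 fell, and of 10 tested genes that handle sphingosine 1-phosphate 4 rose and 1 fell. Over all tested genes 20.8% were called higher and 19.4% lower, and counts this small are not read against those shares. Asah1, the acid ceramidase of lysosomes, rose to 116 ± 12.9 FPKM with arachidonic acid, against 71.0 ± 2.25 FPKM with vehicle (log2 difference 0.69, SE 0.09, limma adjusted p = 0.0026). Acer3, an alkaline ceramidase, rose to 9.19 ± 0.113 FPKM, against 7.20 ± 0.427 FPKM with vehicle (adjusted p = 0.022), a call lost with the replicate block (adjusted p = 0.063) and without arachidonic acid replicates 2 or 3 or vehicle replicates 1 or 2 (adjusted p = 0.066 to 0.080). Acer1 fell to 0.767 ± 0.732 FPKM, against 2.71 ± 0.775 FPKM with vehicle (adjusted p = 0.025), a call that was lost without the filter (adjusted p = 0.068) and without any 1 library other than arachidonic acid replicate 1 (adjusted p = 0.061 to 0.089). Sphk1, a sphingosine kinase, had 3.99, 6.47 and 6.15 FPKM in arachidonic acid replicates 1, 2 and 3, against 0.808, 0.736 and 0.494 FPKM in vehicle replicates 1, 2 and 3 (log2 difference 1.94, SE 0.19, adjusted p = 0.0011). It passed the filter only through its arachidonic acid values, and with no filter its limma adjusted p was 0.0066. Spns2, the exporter of sphingosine 1-phosphate, had 9.14, 26.8 and 22.6 FPKM in arachidonic acid replicates 1, 2 and 3, against 2.22, 3.07 and 1.44 FPKM in vehicle replicates 1, 2 and 3 (log2 difference 2.57, SE 0.39, adjusted p = 0.0040). Both rose without overlap between the groups, and replicate 1 was the lowest arachidonic acid library for each. Aldh3a2, the fatty aldehyde dehydrogenase that oxidises the hexadecenal left when sphingosine 1-phosphate is cleaved, rose to 258 ± 43.4 FPKM, against 65.4 ± 3.66 FPKM with vehicle (log2 difference 1.95, SE 0.12, adjusted p = 0.00041). Plpp3, a lipid phosphatase, fell to 3.83 ± 0.625 FPKM, against 5.77 ± 0.255 FPKM with vehicle (adjusted p = 0.020), a call that was lost without the filter (adjusted p = 0.060) and without any 1 vehicle library (adjusted p = 0.0525 to 0.074). The lyase gene Sgpl1 did not pass, at 77.2 ± 4.93 FPKM with arachidonic acid and 69.7 ± 3.26 FPKM with vehicle (adjusted p = 0.15). Of 5 receptor genes for sphingosine 1-phosphate, S1pr2 alone was above the filter and did not pass (adjusted p = 0.071), and the other 4 did not reach 0.1 FPKM in any library.

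**Figure D5:**
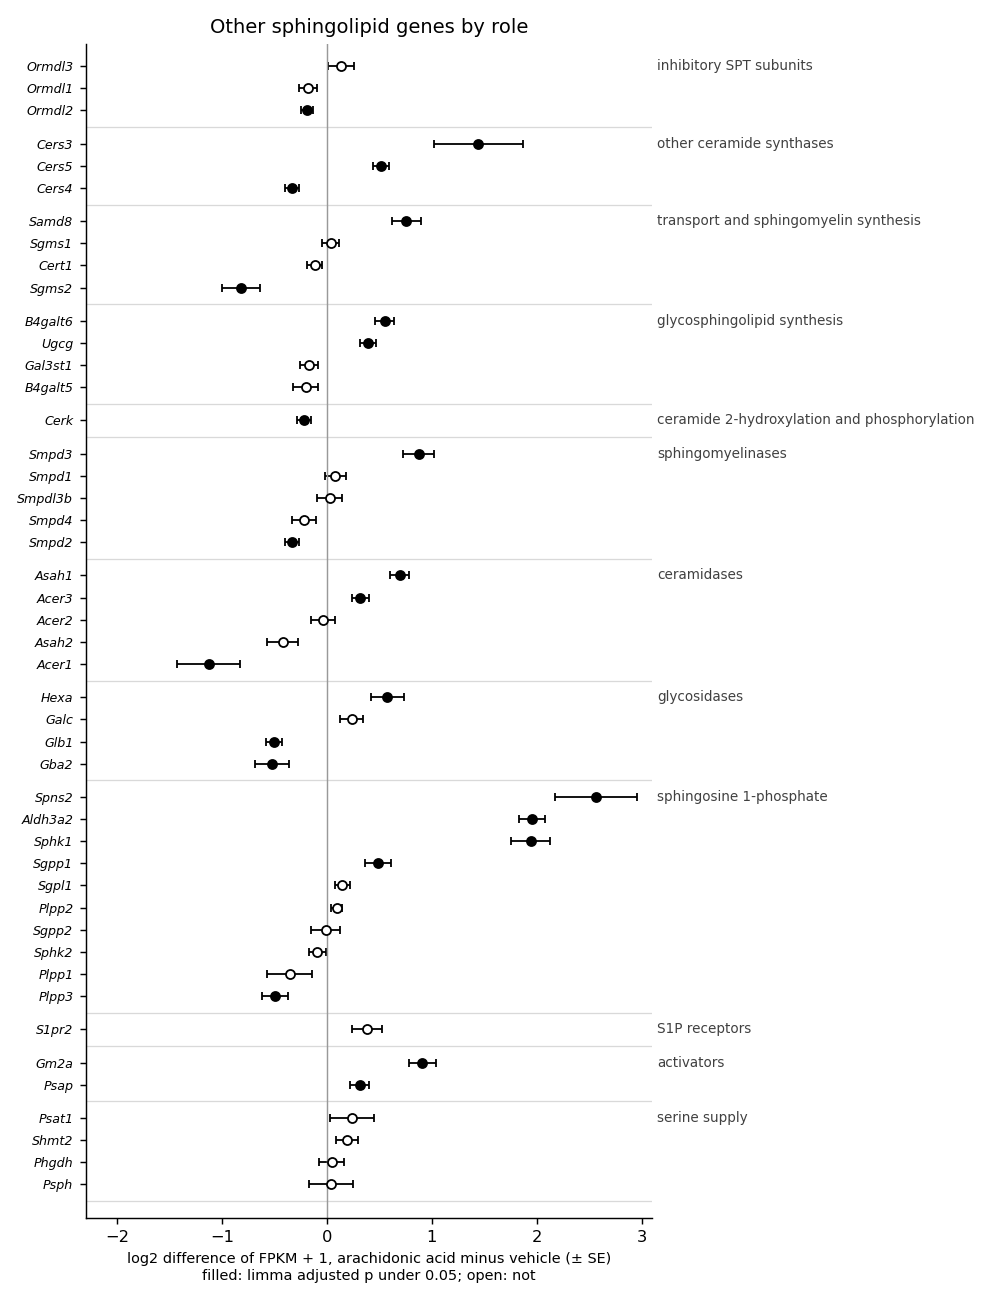
Log2 difference of FPKM + 1, arachidonic acid minus vehicle, with its SE, for most of the tested sphingolipid genes outside the 10 members, grouped by role (filled, limma adjusted p under 0.05; open, not). The differences drawn run from -1.13 for Acer1 to 2.57 for Spns2.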

How the data were processed

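The authors deposited 1 table per library with a value for each of 53953 genes. The labels name no unit. The deposited values are taken as FPKM, since low values times the mean transcript length in GENCODE M21 came in whole steps (below 100 fragments, 96.3% to 96.7% lay within 0.1 of an integer), which also gave depth and fragments per gene. Per the submitters' processing notes, the tools were featureCounts 1.5.0-p3, HISAT2 2.0.5 and StringTie 1.3.3b. Roles, genome build and strand setting were not given in the sources used here. Symbols were found for 53274 of 53465 Ensembl identifiers; Cert1 is listed as Col4a3bp. Genes averaging 1 FPKM or more were kept on the log2(FPKM + 1) scale. The group difference was fitted with limma 3.58.1 (R 4.3.3, variance trend), with two-sided p-values adjusted by Benjamini-Hochberg over 12913 genes at a threshold of 0.05; the code was tested on simulated data. Python 3.11.15 was used for summaries. The members and gene lists were chosen with earlier results of these data known. Named were all members, the Ormdl and Cers genes, up to 4 called genes of each other role by size of difference, and the 5 genes nearest to Sptssb; Fa2h, Sgpl1, Sgms1, Cert1, S1pr2 and the serine genes were named after their values were seen. Promoter motifs were chosen after the data were seen, the CCAAT and GC boxes also after the sequences were. Alternatives tried were TPM rescaling, quantile normalization, a pseudocount of 0.1, a minimum of 5 FPKM, no minimum, the replicate number as a block, each library left out and, chosen after seeing the data, median-of-ratios scaling and limma-voom on recovered fragments. Results for a few genes that enter the counts are not reported here.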

Additional observations from a re-analysis of the deposited data

How the results depend on the processing

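Counting genes at adjusted p under 0.05 with limma, 2690 of all tested genes were higher and 2502 lower with arachidonic acid, and leaving out 1 library gave 1712 to 3554 higher and 1245 to 4192 lower. For the sphingolipid genes outside the members, 16 higher and 10 lower became 11 to 22 higher and 4 to 17 lower. For the members, 4 were higher at every setting and 1 lower became 1 to 3, and nothing is read from these member counts. The highest of the counts that varied came without arachidonic acid replicate 1 in each case, tied with quantile normalization for the members, which gave 3 lower. Of the 26 calls on sphingolipid genes, 26 held without arachidonic acid replicate 1 and 13 held under every alternative; Sphk1 and Gm2a were below the minimum of 5 FPKM and so not tested there. The log2 ratio of Sptssb to Sptssa, arachidonic acid minus vehicle, was 4.76, and 6.15 with a pseudocount of 0.1, which compresses low values less. That of Degs2 to Degs1 was 1.01 (0.966 to 1.09 with 1 library left out) and that of Cers6 to Cers2 was -0.58 (-0.67 to -0.53). The ratio of Sptlc3 to Sptlc2 was not taken through the alternatives because Sptlc3 was listed at 0 in every library. With the replicate block 2263 genes were higher and 1998 lower, and 14 and 9 of the sphingolipid genes. The replicate numbers are not said to pair the cultures, so they were not taken to do so. Same-numbered libraries correlated at -0.0811, 0.210 and -0.0623 in their deviations from the group means, and not every library correlated best with its own number. With 3 libraries per group and arachidonic acid replicate 1 apart from its group, these correlations cannot decide whether cultures were paired. The depth limits Sptssb, Cers3 and Sphk1 in vehicle libraries, where they rest on 15 to 31, 1 to 5 and 29 to 46 fragments.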

Other observations

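Glycosidases and their activator proteins, which take glycosphingolipids apart, moved in both directions. Hexa, a lysosomal hexosaminidase subunit, rose to 29.1 ± 6.32 FPKM with arachidonic acid, against 18.9 ± 1.13 FPKM with vehicle (SD, n = 3 each; log2 difference 0.58, limma adjusted p = 0.029), a call that was lost without the filter (adjusted p = 0.070) and without any 1 library other than arachidonic acid replicate 1 (adjusted p = 0.065 to 0.097). Gba2, a glucosylceramidase outside lysosomes, fell to 5.13 ± 1.31 FPKM, against 7.73 ± 0.539 FPKM with vehicle (adjusted p = 0.039), a call that was lost without the filter (adjusted p = 0.095) and without any 1 library other than arachidonic acid replicate 1 (adjusted p = 0.089 to 0.127). Gm2a, an activator protein that lifts gangliosides out of membranes, rose to 6.04 ± 0.896 FPKM, against 2.73 ± 0.224 FPKM with vehicle (log2 difference 0.91, adjusted p = 0.0032). Psap, the saposin precursor, rose to 183 ± 21.1 FPKM, against 147 ± 4.05 FPKM with vehicle (adjusted p = 0.036), a call that was lost without the filter (adjusted p = 0.075), with quantile normalization (adjusted p = 0.057), the replicate block (adjusted p = 0.057) and without any 1 library other than arachidonic acid replicate 1 (adjusted p = 0.088 to 0.123).

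None of the 4 genes of serine synthesis and its exchange with glycine passed the limma test with all libraries; serine is a substrate of SPT. At an unadjusted p under 0.05 none passed either, nor did any with limma-voom. Phgdh, the first enzyme of the serine pathway, was at 252 ± 36 FPKM with arachidonic acid and 243 ± 21.9 FPKM with vehicle (limma adjusted p = 0.79). Psat1, the aminotransferase of that pathway, had 131, 189 and 243 FPKM in arachidonic acid replicates 1, 2 and 3, against 159, 143 and 162 FPKM in vehicle replicates 1, 2 and 3. Psat1 and Shmt2 passed without arachidonic acid replicate 1 (adjusted p = 0.0062 and 0.0031).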
